A study of Bos taurus with 16 samples.

Results

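INHBA (ENSBTAG00000048508), FST (ENSBTAG00000003329) and BMP1 (ENSBTAG00000000917) are 3 of the 27607 genes counted in the liver and the skeletal muscle of in vitro- and in vivo-produced calves. They encode an activin subunit, an activin-binding protein and a protease of the extracellular matrix, and they were chosen as regulators of the TGF-beta family with the difference between in vitro- and in vivo-produced calves in view. Their levels in the 2 groups of calves are therefore given as a description without a test. The difference between the organs was tested. It was not the contrast behind the choice, but it draws on the same values.

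Polyadenylated RNA was sequenced from the right lobe of the liver and from the semitendinosus muscle of 8 Holstein bull calves. The IVP calves (n = 4, aged 98 to 103 days) came from oocytes aspirated from the ovaries after mild hormonal stimulation, and fertilized and cultured in serum-free media. The MOET calves (n = 4, controls, aged 102 to 144 days) came from embryos flushed after superovulation and insemination. Embryos of both groups were transferred fresh to recipients, and the calves shared the herd and the conditions of rearing. All IVP calves and MOET calves 3217 and 3218 had the same dam, and MOET calves 5932 and 3213 had another one. IVP calves 3208 and 3209 and MOET calves 3217 and 3218 also shared the sire, so these 4 calves are full siblings across the groups. IVP calves 5833 and 5841 shared another sire, and each of the other MOET calves had a sire of its own.

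Activin A is a dimer of the beta A subunit that INHBA encodes. It binds type II activin receptors, which recruit a type I receptor that phosphorylates Smad proteins, and these enter the nucleus and change transcription. Follistatin, the product of FST, binds activins and myostatin and keeps them from their receptors. In liver, activin A is known for restraining the growth of hepatocytes, and in skeletal muscle activin A and myostatin restrain muscle mass while follistatin opposes both. BMP1 is, despite its name, a metalloprotease and not a ligand of the family. It removes the C-terminal propeptides of fibrillar procollagens, processes the precursor of lysyl oxidase, and releases ligands by cleaving chordin and the propeptide of myostatin.

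Liver libraries held 22758137 to 24667728 deposited counts and muscle libraries 23677247 to 25626474, after an adjustment for age. MOET calf 3213 was 144 days old, and the other 7 were 98 to 104 days old. Its counts strayed from the average of its group by a median of 0.0175 (log2) in liver and 0.0112 in muscle, while each remaining calf strayed by 0.104 to 0.361 and by 0.108 to 0.178. Its library was not taken as a separate replicate, so its values are printed but means and SDs cover 4 IVP and 3 MOET calves. The fits of IVP against MOET calves, which gave the log2 fold changes, standard errors and FDR, did include it, with age as covariate, and the comparison of the organs left it out. IVP calf 5841 had the liver library with the highest deviation, 0.361. The named hepatocyte markers TTR and APOB together reached at least 5018 CPM (counts scaled to library size) in every liver library of these 7 calves. In muscle the named fibre markers reached at least 117422 CPM and in liver at most 0.775 CPM. APOB had 0 counts in the muscle of every calf. TTR had 8 to 801 counts there, with every IVP calf above every MOET calf.

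INHBA was the gene of the 3 with the widest gap between the groups in liver. Its deposited counts there were 1336, 1133, 766 and 2535 in IVP calves 3208, 3209, 5833 and 5841, and 334, 436 and 359 in MOET calves 3217, 3218 and 5932, with 351 in calf 3213. Scaled by TMM within liver, these were 54.7, 49.2, 34.8 and 124.6 CPM in IVP calves and 13.9, 17.8 and 13.7 CPM in MOET calves. Every IVP calf lay above every MOET calf, and calf 5841 stood highest of all.

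INHBA in liver averaged 65.8 ± 40.1 CPM (SD, n = 4) over the IVP calves, as against 15.1 ± 2.31 CPM (SD, n = 3) over the MOET calves. The log2 fold change was 2.05 (standard error 0.420), or 4.14-fold, and 18 of the 14290 liver genes tested had a higher one. Groups without overlap occurred in 33.1% of all liver genes, in 16.3% with the IVP calves above and in 16.7% with them below. The IVP calves also spread more widely, with a highest level 3.58 times the lowest, against 1.298 times in MOET calves. Without calf 5841 the log2 fold change was 1.61. Among the full siblings the mean level was 51.9 CPM in the 2 IVP and 15.8 CPM in the 2 MOET calves, 3.28-fold.

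The summed level of 3 of 6 macrophage markers, C1QA, C1QB and CSF1R, was also higher in the liver of every IVP calf (1136 to 2018 CPM) than in MOET calves (846 to 1058 CPM). The summed endothelial markers CDH5 and VWF, 2 of 6, ran from 76.9 to 95.1 CPM in IVP liver and from 99.7 to 125.0 CPM in MOET liver. For CDH5 and for VWF taken singly the groups overlapped in liver. The hepatocyte markers stood apart in opposite directions in liver, TTR with a log2 fold change of 0.61 and every IVP calf above the MOET calves, and APOB with −0.67 and every IVP calf below them. The names of these markers come from supplementary tables of genes selected partly on these same libraries. Among the 3670 named genes tested in liver, 1275 had every IVP calf above the MOET calves and 1148 every IVP calf below them. No marker of fibroblasts or stellate cells, or of the bile duct, could be matched to an ID. The part of these cells in the INHBA level was not tested, and in such bulk tissue fewer cells of a type and less RNA per cell cannot be told apart.

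INHBA was close to the limit of counting in muscle. Its counts were 32, 14, 54 and 25 in IVP calves and 19, 27 and 24 in MOET calves, with 21 in calf 3213. The exact Poisson interval (95%, counting error only) of the lowest value was 7.65 to 23.5 counts and that of the highest 40.6 to 70.5. Scaled within muscle, IVP calves averaged 1.20 ± 0.588 CPM (SD, n = 4), and MOET calves averaged 0.940 ± 0.174 CPM (SD, n = 3). The log2 fold change was 0.37 (standard error 0.375), the groups overlapped, and among the full siblings it was −0.01. TTR, a hepatocyte gene, was listed at 34.1 CPM in the muscle of IVP calf 3209, at 2.10 to 3.93 CPM in the other IVP calves and at 0.374 to 0.755 CPM in MOET calves. Calf 3209 had the lowest INHBA level of the 7 in muscle, 0.596 CPM.

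FST had log2 fold changes of opposite sign in the 2 organs. In liver its counts were 310, 322, 187 and 659 in IVP calves 3208, 3209, 5833 and 5841, and 142, 119 and 300 in MOET calves 3217, 3218 and 5932, with 170 in calf 3213. The levels within liver were 12.7, 13.97, 8.49 and 32.4 CPM in IVP calves and 5.90, 4.86 and 11.5 CPM in MOET calves. MOET calf 5932 lay above IVP calf 5833, so the groups overlapped, and calf 5841 was again the highest.

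FST in liver averaged 16.9 ± 10.6 CPM (SD, n = 4) over the IVP calves, and the MOET calves averaged 7.40 ± 3.54 CPM (SD, n = 3). The fitted log2 fold change was 1.12 (standard error 0.487), or 2.18-fold. Without calf 5841 it was 0.68. Among the full siblings the 2 IVP calves had 13.3 CPM and the 2 MOET calves 5.38 CPM, 2.48-fold.

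In muscle FST had 92, 82, 110 and 133 counts in IVP calves and 224, 225 and 212 in MOET calves, with 208 in calf 3213. These were 3.76, 3.49, 4.00 and 4.90 CPM in IVP calves and 9.33, 9.44 and 7.93 CPM in MOET calves on the scale within muscle. Every IVP calf lay below every MOET calf, and the highest IVP value did not reach the lowest MOET value.

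FST in muscle averaged 4.04 ± 0.611 CPM (SD, n = 4) over the IVP calves, and the MOET calves averaged 8.90 ± 0.842 CPM (SD, n = 3). The log2 fold change was −1.15 (standard error 0.147), so that the MOET level was 2.22 times that of IVP calves, and 47 of the 12854 muscle genes tested had a lower one. Groups without overlap occurred in 19% of all muscle genes, in 10.4% with the IVP calves above and in 8.66% with them below. The full siblings averaged 3.63 CPM when IVP and 9.38 CPM when MOET, and with the calves of the shared dam alone the log2 fold change was −1.22.

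BMP1 levels of the groups overlapped in liver but stood apart in muscle, IVP calves having the lower ones. Its liver counts were 1838, 1737, 1951 and 2013 in IVP calves and 2248, 2070 and 2222 in MOET calves, with 2251 in calf 3213. Scaled within liver, these became 75.3, 75.4, 88.6 and 98.9 CPM for IVP and 93.4, 84.5 and 84.8 CPM for MOET calves. The counts of the groups did not overlap, but the scaled levels did. The means were 84.5 ± 11.4 CPM (SD, n = 4) and 87.6 ± 5.07 CPM (SD, n = 3), with a log2 fold change of −0.06 (standard error 0.135). With library size alone in place of TMM the log2 fold change was −0.23.

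In muscle BMP1 had 324, 441, 428 and 455 counts in IVP calves and 757, 705 and 935 in MOET calves, with 756 in calf 3213. The levels within muscle were 13.2, 18.8, 15.6 and 16.8 CPM in IVP calves and 31.5, 29.6 and 35.0 CPM in MOET calves. No IVP calf came near the MOET calves, the nearest values of the groups being 18.8 and 29.6 CPM.

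BMP1 in muscle averaged 16.1 ± 2.32 CPM (SD, n = 4) over the IVP calves, and the MOET calves averaged 32.0 ± 2.73 CPM (SD, n = 3). The log2 fold change was −0.99 (standard error 0.125), a MOET level 1.99 times that of IVP calves, and 77 of the 12854 muscle genes had a lower one. Among the full siblings the average was 16.02 CPM for the IVP and 30.6 CPM for the MOET pair.

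**Figure D1:**
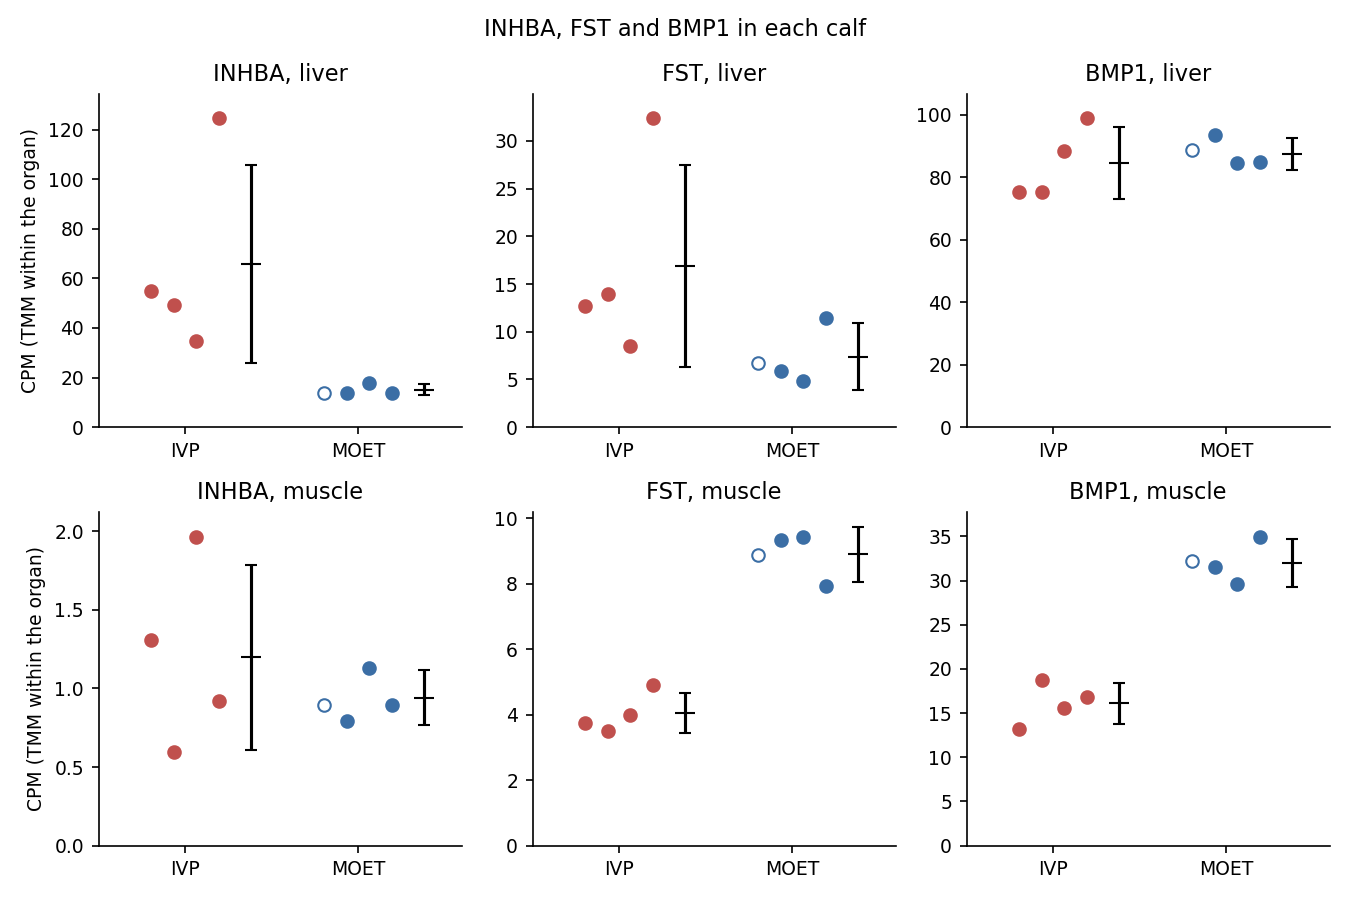
Level of INHBA, FST and BMP1 in each calf, in CPM scaled by TMM within liver (upper row) or within muscle (lower row), each axis starting at 0. Filled points are calves, open points are MOET calf 3213, and the bars give the mean ± SD over 4 IVP and 3 MOET calves; INHBA in liver, and FST and BMP1 in muscle, show no overlap between the groups.

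Of the 5 named markers of muscle fibres, 3 also stood apart between the groups in muscle, as did 19% of all muscle genes. Among the 3378 named genes tested there, 575 had every IVP calf above the MOET calves and 480 every IVP calf below them. The markers, too, have names only from supplementary tables of genes selected partly on these libraries. The log2 fold change of MYH7, the slow myosin heavy chain, was 1.65, that of MYH2, a fast one, was 0.79 and that of TNNC2, the fast troponin C, was −0.60, each without overlap of the groups. ACTA1, skeletal actin, and TNNT3, the fast troponin T, had −0.29 and −0.37, and their groups overlapped. The summed endothelial markers ran from 85.2 to 139 CPM in IVP muscle and from 71.8 to 79.1 CPM in MOET muscle. Taken singly, CDH5 stood apart in muscle and the groups overlapped for VWF. The macrophage markers ran from 15.8 to 43.1 CPM and from 22.5 to 30.3 CPM. The part of fibre type and of other cells in the levels of FST and BMP1 was not tested.

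INHBA and FST, a ligand subunit and its binding protein, were also set against each other within a library, where scaling cancels. Transcript lengths were not used, so the ratio of counts can be compared between libraries and not read as a ratio of molecules. In liver there were 4.31, 3.52, 4.10 and 3.85 INHBA counts per FST count in IVP calves 3208, 3209, 5833 and 5841, and 2.35, 3.66 and 1.20 in MOET calves 3217, 3218 and 5932. Calf 5841, highest for both genes, had a ratio within the range of the other IVP calves. The means were 3.94 ± 0.340 (SD, n = 4) and 2.40 ± 1.23 (SD, n = 3), and the groups overlapped through MOET calf 3218.

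In muscle the ratio was 0.348, 0.171, 0.491 and 0.188 in IVP calves and 0.0848, 0.120 and 0.113 in MOET calves. The means were 0.299 ± 0.151 (SD, n = 4) and 0.106 ± 0.0187 (SD, n = 3), without overlap. With 14 to 54 INHBA counts a library, this ratio carries the counting error of INHBA, and its direction follows from the FST values that chose the gene.

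**Figure D2:**
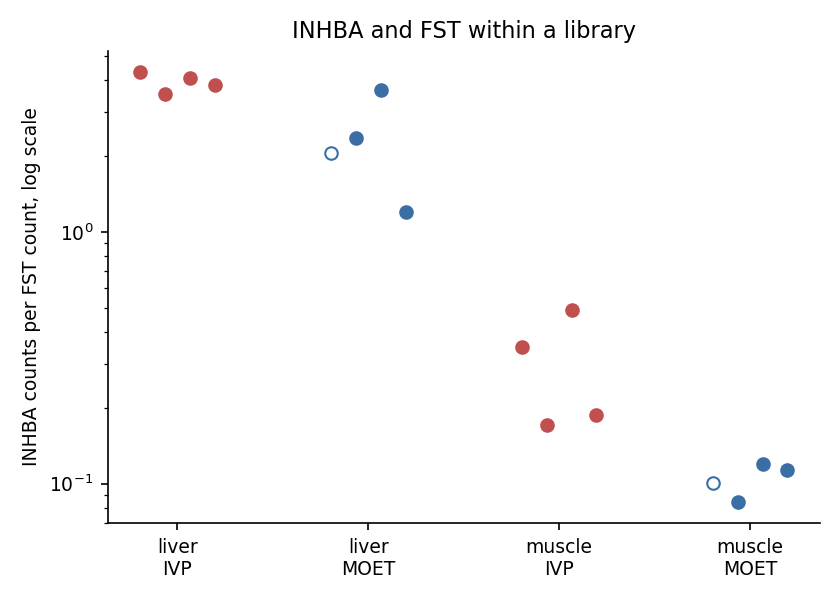
INHBA counts per FST count in each library, on a log axis, for IVP and MOET calves in liver and in muscle. Filled points are calves and open points are MOET calf 3213; the ratio lay between 3.52 and 4.31 in the liver of IVP calves and between 0.0848 and 0.491 in muscle over both groups.

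The organs were compared over the 7 calves on a common scale, CPM with TMM over both organs. The difference is an average over IVP and MOET calves. INHBA was higher in liver, at 34.8 ± 31.1 CPM against 1.37 ± 0.549 CPM in muscle (SD, n = 7). Single calves ranged from 10.7 to 98.6 CPM in liver and from 0.756 to 2.42 CPM in muscle, without overlap. The log2 difference of muscle minus liver was −4.21 (standard error 0.310, FDR 2.53e-09 from edgeR's quasi-likelihood test), or 18.5-fold higher in liver. It was −5.12 in IVP calves alone and −3.32 in MOET calves alone. At this threshold 82.3% of all genes differed between the organs, and 43.6% were lower in muscle. Liver was higher in 7 of 7 calves, and the exact two-sided sign-flip permutation test over the calves gave p = 0.0156, the smallest it allows, or 0.0234 adjusted over the 3 genes.

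BMP1 was also higher in liver, at 67.6 ± 6.93 CPM against 28.9 ± 11.3 CPM in muscle (SD, n = 7). The log2 difference was −1.24 (standard error 0.0965, FDR 4.81e-09 from edgeR), 2.37-fold, with the same direction in 7 of 7 calves and an exact permutation p of 0.0156, adjusted 0.0234. It was −1.75 in IVP calves alone and −0.77 in MOET calves alone. In single calves the log2 difference was −1.82, −1.32, −1.87 and −1.90 in IVP calves 3208, 3209, 5833 and 5841, and −0.88, −0.80 and −0.60 in MOET calves 3217, 3218 and 5932. Each IVP calf thus had a wider gap between its organs than each MOET calf, which was not tested because the muscle values chose the gene.

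FST reached 10.1 ± 7.35 CPM in liver and 7.73 ± 3.45 CPM in muscle (SD, n = 7). The log2 difference of muscle minus liver was −0.22 (standard error 0.262, FDR 0.446 from edgeR), and the exact permutation p was 0.656. FST was lower in muscle than in liver in 4 of 4 IVP calves, by log2 differences of −1.06, −1.30, −0.44 and −2.06, and in 0 of 3 MOET calves, where they were 1.34, 1.65 and 0.15. This contrast between the groups was not tested, since the IVP and MOET values chose the gene.

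The distance between the organs depends on scaling. The TMM factors over both organs ranged from 1.10 to 1.44 for liver libraries and from 0.736 to 0.881 for muscle libraries. With library size alone the log2 differences were −4.86 for INHBA, −0.89 for FST (FDR 0.00393 from edgeR) and −1.91 for BMP1. The direction of INHBA and BMP1 was the same under both, and FST passed the threshold only with library size alone among the scalings run.

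**Figure D3:**
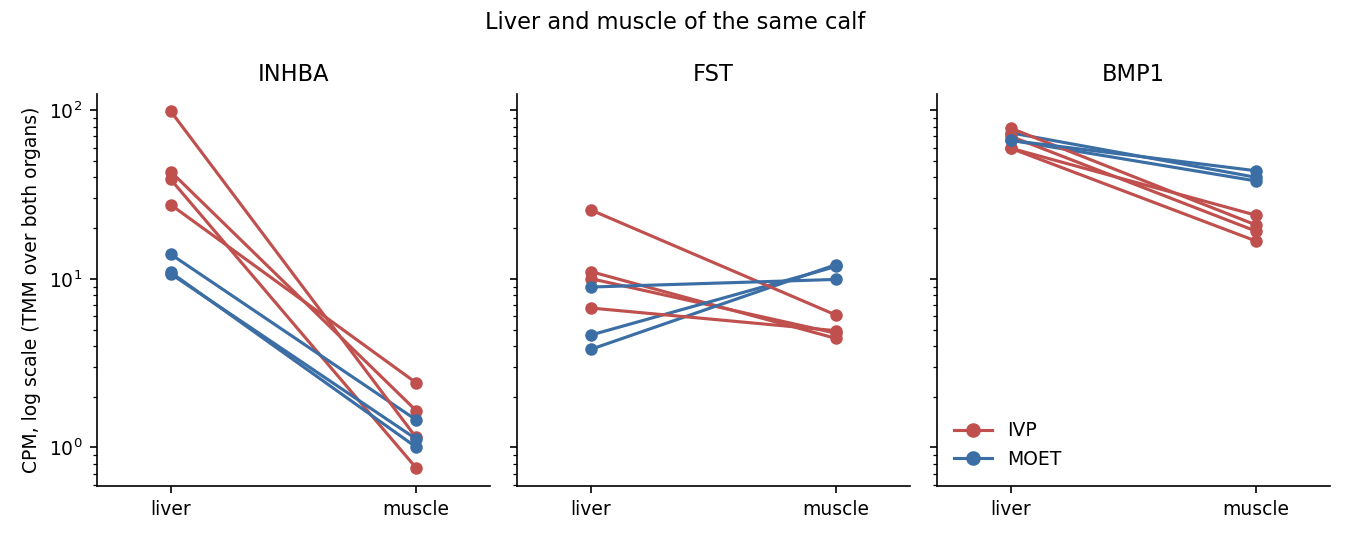
INHBA, FST and BMP1 in both organs of each calf, in CPM scaled by TMM over both organs, on a log axis; each line is 1 of 7 calves. The lines fall from liver to muscle in every calf for INHBA and BMP1, while for FST they fall in the 4 IVP calves and rise in the 3 MOET calves.

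Other genes of the pathway were taken from 8 lists of 113 genes, of which 34 could be matched to an ID and 31 are not INHBA, FST or BMP1. The names come from supplementary tables that list genes selected partly on these same libraries, so the counts below are to be read against all named genes as well as against all genes. None of the 10 genes listed for muscle growth could be named. The related subunits and proteins INHBB, INHBC, INHBE, INHA, FSTL3, ACVR1B, TLL1 and PCOLCE were not analysed here.

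In liver 0 of the 29 pathway genes tested had an FDR under 0.05 in edgeR's quasi-likelihood test (the lowest was 0.125), against 0.035% of all genes, and DESeq2's Wald test called 13, against 11.2% of all genes and 1136 of the 3670 named ones. At an unadjusted p under 0.05 there were 4 higher and 16 lower in IVP calves, or 69.0%. Among all genes with a name this share was 57.4%, and among all genes 29.8% (14.8% higher and 15% lower). The median log2 fold change was −0.54, and that of all liver genes was −0.004. Of the 4 tested genes whose name did not come from liver expression, 1 had an unadjusted p under 0.05.

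In muscle 0 of 28 pathway genes passed (the lowest FDR was 0.0694 in edgeR), against 0.467% of all genes, and DESeq2 called 2, against 3.92% of all genes and 211 of the 3378 named ones. An unadjusted p under 0.05 was reached by 7 with higher and 6 with lower levels in IVP calves, 46.4%, against 29.9% of all named genes and 19.8% of all genes (11.4% higher and 8.43% lower). The median log2 fold change was 0.15, and that of all muscle genes 0.02. For the 24 genes whose name did not come from muscle expression the count was 6 higher and 3 lower, 37.5%.

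Of the ligands, myostatin (MSTN), which restrains muscle mass and is bound by follistatin, had 0 counts in every liver library. In muscle it reached 8.18, 15.8, 4.33 and 10.5 CPM in IVP calves 3208, 3209, 5833 and 5841, and 21.4, 19.96 and 12.6 CPM in MOET calves 3217, 3218 and 5932. The groups overlapped, and its log2 fold change of −0.91 (standard error 0.336) had an unadjusted p of 0.0203 and an FDR of 0.176 in edgeR. BMP10 and BMP2, ligands of the BMP branch, had log2 fold changes of −1.57 and −0.55 in liver, each with an FDR of 0.125 in edgeR. Each of the 4 ligands tested in liver had a log2 fold change below 0, as did 7195 of all 14290 liver genes. That of GDF15 was −0.05 (standard error 0.485). INHBA, a ligand subunit described without a test and not among the 4, had 2.05.

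Of the type II activin receptors, ACVR2A had log2 fold changes of −0.29 in liver and −0.07 in muscle, and ACVR2B of −0.28 and 0.03, with overlapping groups in both organs. Of the type I receptors, TGFBR1, which serves TGF-beta, showed −1.56 on the log2 scale in liver, at 0.898 ± 0.458 CPM (SD, n = 4) for IVP and 2.75 ± 0.947 CPM (SD, n = 3) for MOET calves. BMPR1A, a BMP receptor, had one of −0.62 there, and in muscle 0 of 4 receptors tested had an unadjusted p under 0.05.

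Among the binding proteins, the BMP antagonist CHRDL1 had log2 fold changes of 0.72 in liver and −0.45 in muscle, with the groups apart in each organ. The matrix proteoglycan DCN, which binds TGF-beta, had −0.00 in liver and −0.47 in muscle. LTBP1, which holds latent TGF-beta in the matrix, had −0.36 in liver and 0.15 in muscle.

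Of the Smad proteins and their regulators, 5 of 7 log2 fold changes were below 0 in liver and 6 of 7 above 0 in muscle. Among all genes 7195 of 14290 were below 0 in liver and 6728 of 12854 above 0 in muscle, so these few signs are a description. SMAD9, a Smad of the BMP branch, had −1.18 in liver, and SMURF2, a ubiquitin ligase of receptors and Smads, −0.77 in liver. The 2 above 0 in liver were TGIF1 with 0.57 and SMAD6 with 0.25, each with every IVP calf above the MOET calves. In muscle the inhibitory SMAD6 had 0.58 and SMAD3, which carries activin and TGF-beta signals, 0.51, with overlapping groups for both. The targets ID1 and ID3, which the BMP branch induces, had log2 fold changes of 0.92 and 0.40 in liver and of 0.77 and 0.47 in muscle. In liver both stood without overlap, and in muscle both groups overlapped.

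The difference of the group contrast between the organs was tested itself, over 16 libraries, for the pathway genes fitted in both organs. At an FDR under 0.05 in edgeR's quasi-likelihood test 5 of 26 differed, against 8.99% of all genes. The share among all named genes was not computed, so the count is not read as a result about the pathway. The 5 genes were CHRDL1, with the lower log2 fold change in muscle, and COL5A2, PCSK5, SKIL and SMURF2, with the lower one in liver. This test was added after the data were seen. With the calf as a replicate block there were 5 of 26 (7.49% of all genes), and without calf 3213 and age 8 of 26 (12.2% of all genes).

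For the substrates of BMP1 the log2 fold changes were below 0 in 5 of 6 in liver and 4 of 6 in muscle, against 7195 of 14290 and 6126 of 12854 among all genes. In liver 5 of 6 had an unadjusted p under 0.05 in edgeR, all lower, and in muscle 3 of 6, all lower. Of all genes 15% and 8.43% were lower at this p, and of the named ones 972 of 3670 and 420 of 3378. In either direction 57.4% and 29.9% of the named genes passed it. COL1A2, COL3A1, COL5A2 and LOX got their names from a list of genes that differed in liver, and COL1A1 and COL3A1 from one that used muscle expression. The counts are therefore not read as a result about the substrates. COL1A1, a chain of type I collagen, had 201, 328, 248 and 224 CPM in the muscle of IVP calves 3208, 3209, 5833 and 5841, and 381, 440 and 486 CPM in MOET calves 3217, 3218 and 5932. Its log2 fold change was −0.79 (standard error 0.172, FDR 0.0694 in edgeR), and the groups did not overlap. COL3A1, type III collagen, had −0.62 (FDR 0.0845 in edgeR), also without overlap, at 400 ± 55.9 CPM (SD, n = 4) for IVP and 617 ± 77.0 CPM (SD, n = 3) for MOET calves. In liver the lysyl oxidase gene LOX, which crosslinks collagen, had −1.59, and COL5A2, a chain of type V collagen, −0.97. PCSK5, a proprotein convertase of the furin family, had −0.59 in liver and 0.49 in muscle.

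**Figure D4:**
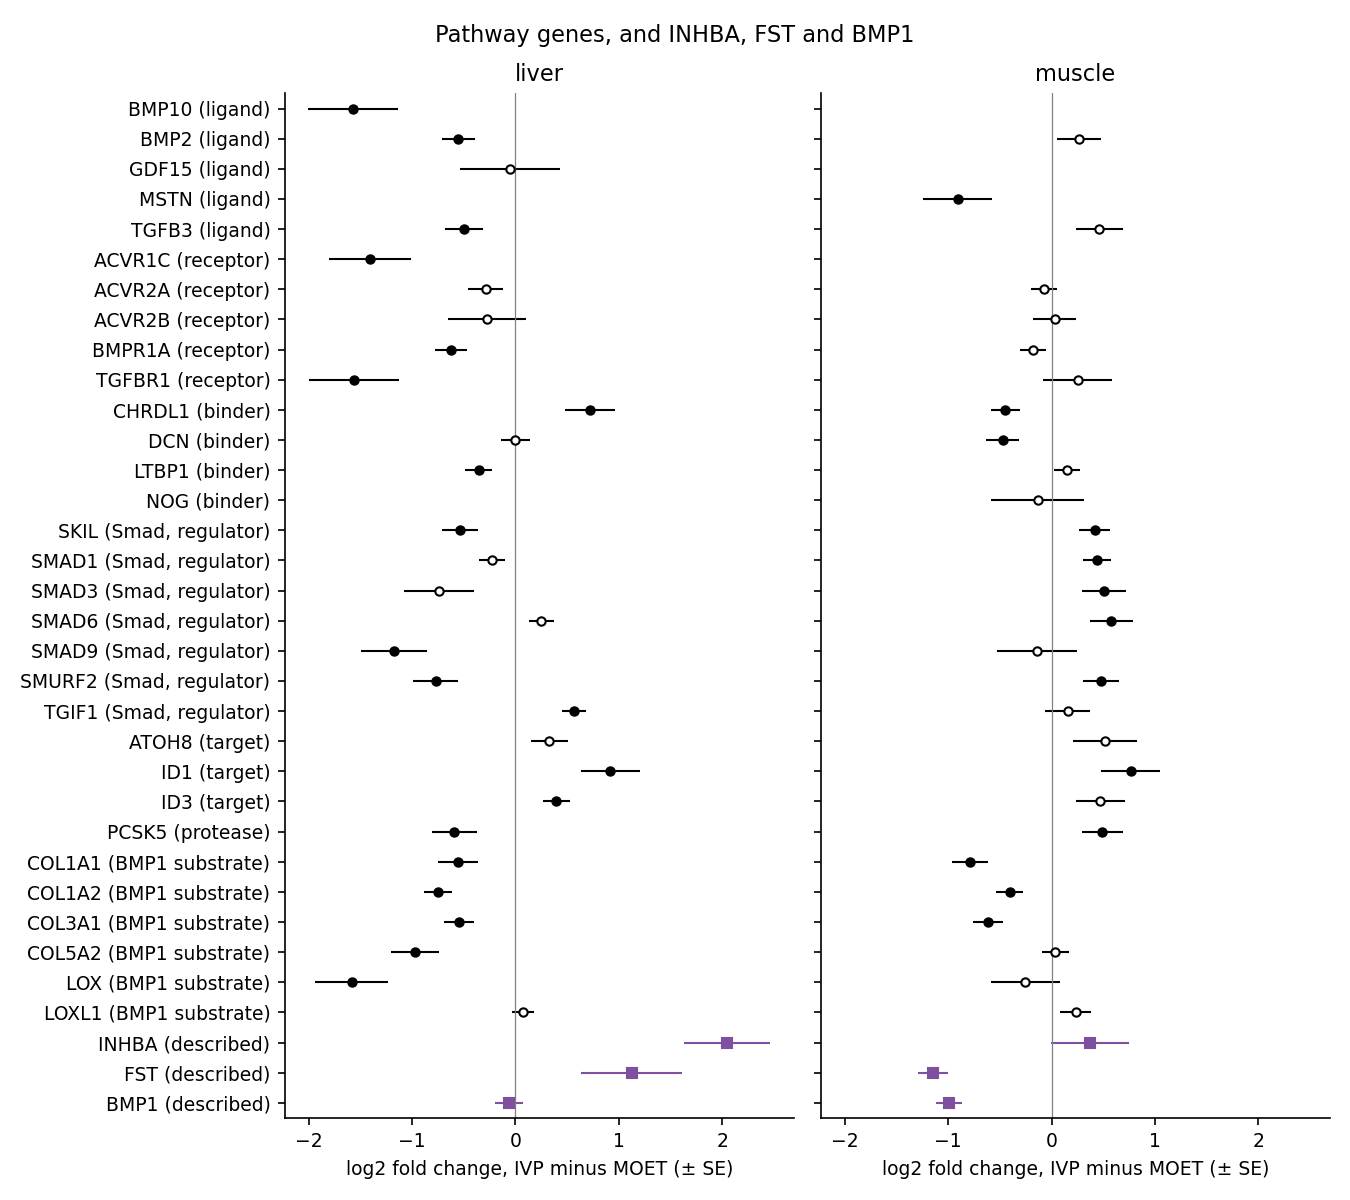
Log2 fold change of IVP minus MOET calves (± standard error) in liver and in muscle for the 31 named pathway genes by role, and for INHBA, FST and BMP1 as squares without a test. Filled points have an unadjusted p under 0.05 in edgeR's quasi-likelihood test, no point has an FDR under 0.05, and a gene without a point was not tested in that organ. In liver 5 of 6 BMP1 substrates have filled points below 0, where 15% of all genes and 972 of the 3670 named ones were lower at this p. The names come from lists of genes selected partly on these libraries.

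The genes whose levels ran most like those of INHBA, FST and BMP1 over the 7 calves were taken by Pearson's r of log2 CPM within an organ, among 3523 named genes in liver and 3134 in muscle. The calves share the split into groups and the scaling, so these values are descriptions. For INHBA in liver they were GSS (r = 0.998), FADS6 (0.994) and RHOC (0.993), and 1249 genes had an r over 0.9. This count and the later ones in both organs are not limited to named genes. GSS makes glutathione and RHOC is a small GTPase. For FST in liver they were SPNS1 (0.979), TMEM161A (0.977) and MAP3K3 (0.959), with 241 genes over 0.9. BMP1 in liver had 6 such genes, and its nearest named ones were TLE4 (0.887), ANKIB1 (0.886) and LOC112449302 (0.872).

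In muscle the genes nearest to FST were KDM5A (r = 0.974), YAF2 (0.973) and ELMOD3 (0.965), and 101 genes had an r over 0.9. Nearest to BMP1 were LMF1 (0.992), CUEDC2 (0.985) and ZSCAN26 (0.984), with 189 genes over 0.9. Around the group means these values were between 0.713 and 0.852 for the genes near FST and between 0.833 and 0.923 for those near BMP1. INHBA, at 14 to 54 counts, ran nearest to ITPRID2 (0.973), SERINC4 (0.968) and ICA1 (0.960).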

How the data were processed

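The authors filtered unstranded read pairs with SOAPnuke, aligned them with STAR 2.7 to bosTau9, used HTSeq-count for counts per Ensembl gene, and removed the effect of age by sva. The deposited values are whole numbers and were treated as estimated counts. The design had assumed counts, and rounding changed no value. Columns of samples that could not be mapped numbered 0. Names came from the paper's supplementary tables, for 4181 of 27607 IDs. INHBA overlaps 1 RefSeq gene, MIR11996, and reads were counted without strand.

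In each organ edgeR 4.0.16 (R 4.3.3; filterByExpr with a minimum count of 10 and total of 15, TMM, quasi-likelihood test, age in days as covariate, Benjamini-Hochberg FDR at 0.05) compared the groups. The organs were compared over 14 libraries with 4 group means, and per calf on log2 CPM (prior count 2). DESeq2 1.42.0 was an alternative. The difference of the group contrast between the organs was fitted for the pathway genes, an analysis chosen after seeing the data. Each fit was first tested on simulated data, 200 genes changed. The simulation for that last fit was rebuilt after its first version, which mixed the organs in 1 dispersion, recovered no changed gene; as rebuilt, a minority of the changed genes was recovered. Figures were drawn with matplotlib 3.10.9.

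Each calf gave both organs, which pairs its libraries by design. The correlation of a calf's deviations from the group means in its 2 organs ranged from −0.133 to 0.264 (median 0.107, over 0.1 in 4 of 7 calves). The genes described and the lists were chosen with earlier results of these data known. Per list and organ, 2 genes were named, with the closest relatives of INHBA, FST and BMP1. These 2 had the largest log2 fold change among genes with an unadjusted p under 0.05 and a mean of at least 1 CPM. SKIL, NOG, TGIF1 and, for liver, SMAD6 were named after their values were seen. Samples are single calves, so p-values within an organ measure the spread between calves. The main fits over both organs took the 2 libraries of a calf as independent. The permutation test and the fits with a replicate block paired them.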

Additional observations from a re-analysis of the deposited data

Results flagged for a closer look

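The group contrast differed between the organs for 5 of 26 pathway genes that could be fitted in both, at an FDR under 0.05 of the difference itself (edgeR's quasi-likelihood test over 16 libraries, calf 3213 included), against 8.99% of all genes. INHBA, FST and BMP1 were left out of this test because the contrast chose them. The share of all named genes that passed this test was not computed. The muscle minus liver difference of the log2 fold changes was −1.20 for CHRDL1 (FDR 0.0342), with every IVP calf above the MOET calves in liver and below them in muscle. It was 1.21 for SMURF2 (FDR 0.0342), 1.05 for PCSK5 (FDR 0.0430) and 0.92 for SKIL, a repressor of Smads (FDR 0.0371), each lower in liver and higher in muscle in IVP calves without overlap. For COL5A2 it was 0.98 (FDR 0.0472), from a lower level in liver and overlapping groups in muscle. With the calf as a replicate block 5 pathway genes passed, SKIL was no longer among them (FDR 0.0528) and TGFBR1 was (FDR 0.0430). Without calf 3213 and without age 8 passed.

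A single calf stood apart from the other IVP calves in 3 of the 63 groups of 4 IVP calves looked at, where chance gives about 1 in 20. The gap to the nearest calf, as a share of the group's range, was 0.859 for NOG in muscle (calf 5833, 0.655 CPM), 0.872 for SMURF2 in liver (calf 5841, 3.93 CPM) and 0.863 for TGIF1 in muscle (calf 5833, 4.22 CPM). NOG was close to the limit of counting there, with 18 counts in calf 5833 and 10, 9 and 10 in IVP calves 3208, 3209 and 5841.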

How the results depend on the processing

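Of 212 values recomputed under an alternative, 177 kept their direction and side of the threshold or moved by less than the spread. The log2 fold changes of INHBA, FST and BMP1 between the groups kept their sign in each of 16 alternatives per gene and organ, except INHBA in muscle, with 15 of 16. FST in muscle was −1.37 and BMP1 in liver −0.24 with the full siblings alone, and BMP1 in liver was −0.23 with library size only. Leaving out 1 calf in turn gave 1.61 to 2.28 for INHBA, 0.68 to 1.56 for FST and −0.13 to −0.00 for BMP1 in liver, and 0.01 to 0.59, −1.25 to −1.09 and −1.08 to −0.91 in muscle. The organ difference of FST was −0.89 with library size only, −1.41 in IVP calves alone and 0.94 in MOET calves alone (values without a test, since the contrast of the groups chose the gene), and −0.36 to 0.04 without 1 calf, the sign turning without MOET calf 5932 (0.039). With the calf as a replicate block the organ differences were −4.31, −0.26 and −1.31 for INHBA, FST and BMP1, and no call changed. The FDR values from edgeR were then 1.97e-06, 0.594 and 5.63e-05.

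The number of genes called depended on the age term, with or without calf 3213, and on single calves. Without calf 3213 but with age kept, 15 pathway genes and 2187 genes in all passed in liver and 0 and 42 in muscle. Without age and without calf 3213, 0 pathway genes and 5 genes in all passed in liver and 0 and 83 in muscle. In liver 0 pathway genes and 5 genes in all passed, with DESeq2 13 and 1568, without age 20 and 2998, and 17 in all without a filter. Leaving out 1 calf gave 0 to 15 and 1 to 2187, with 15 and 2187 without MOET calf 3213, 11 and 1219 without IVP calf 5841 and 101 in all without IVP calf 3208. In muscle 0 and 60 passed, with DESeq2 2 and 465, without age 6 and 1174, without a filter 1 and 186. Leaving out 1 calf gave 0 to 2 and 6 to 350, with 2 and 350 without IVP calf 3209, and 6 and 10 in all without MOET calves 3218 and 3217. The cause was not tested. Library size only, the calves of the shared dam alone and the fit of the contrast between the organs were chosen after seeing the data. Counts of 14 to 54 limit INHBA in muscle.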
